A study of Mus musculus with 12 samples.

Results

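The genes of vascular endothelial growth factor (VEGF) signalling examined here were 3 receptor tyrosine kinases (Kdr, Flt1 and Flt4), 2 neuropilins (Nrp1 and Nrp2) and 4 ligands (Vegfa, Vegfb, Vegfc and Pgf). They were chosen by name, and all 9 were among the 15768 genes listed for both cell populations, of 19564 genes listed for either. RNA-seq libraries had been made from glomerular endothelial cells (GEC) of C57BL/6 mice aged 4 months, either wild type (WT) or Col4a5 -/-, the model of Alport syndrome (AS), in which a chain of the collagen IV network of the glomerular basement membrane is missing. All mice carried the TekCre tdTomato reporter, and cells of sieved and digested glomeruli had been sorted by their tdTomato signal into a dim and a bright population. With 3 mice of each genotype and a dim and a bright library from each mouse, there were 12 libraries in 4 groups of 3: WT-dim, AS-dim, WT-bright and AS-bright. Because Cre is driven by the Tek promoter and acts permanently, the label marks every cell with a Tek-expressing ancestor, and cells other than endothelium can carry it.

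In the glomerulus, podocytes are the main source of Vegfa, which crosses the basement membrane to the fenestrated endothelium. Kdr (VEGF receptor 2) carries most of the growth and survival signal in endothelial cells. Flt1 (VEGF receptor 1) binds Vegfa more tightly, signals weakly and, as a soluble form, acts as a decoy. Flt4 (VEGF receptor 3) binds Vegfc and the related Vegfd, Vegfb and Pgf bind Flt1 and not Kdr, and the neuropilins are co-receptors that also bind class 3 semaphorins.

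Kdr, Flt1, Nrp1, Nrp2, Vegfa and Vegfc were higher in the bright than in the dim cells of both genotypes, and Vegfb did not pass the test. Flt4 and Pgf had too few counts in the dim cells, and their values are given as a description there. Of all genes tested, 13.8% were higher in bright cells of WT and 28.6% in those of AS. Between genotypes, Kdr was the member that passed: it was 6.79-fold lower in AS-dim than in WT-dim, where 6.42% of all genes and 11 of 14 endothelial markers were lower and the leukocyte marker sum was higher in every AS library. The call was lost without AS-dim replicate 1 or 3 (adjusted p = 0.103 and 0.0968, edgeR) and with a proximal tubule or leukocyte marker covariate (adjusted p = 0.689 and 0.300, edgeR). The log2 fold change of Kdr stayed at -3.00 to -1.85 over all 17 alternatives. Both marker sums lay apart between the genotypes in dim cells, so the covariate fits cannot divide the effect between marker and genotype. No gene of the whole table passed in them. The effect of the genotype on Kdr differed between dim and bright cells, as it did for 12 of 14 endothelial markers. Flt1, in the same AS-dim libraries, differed by -0.73 (log2) without passing, so that the ratio of Kdr to Flt1 was lower in every AS-dim library than in any WT-dim library.

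The promoters of 4 members are shown because Kdr and Flt1 differed together between bright and dim cells, Vegfa did so less, and Vegfb did not pass. Each is the 250 bases before a RefSeq start site on GRCm38.p6, on the strand of the gene, with GGAA and its reverse complement TTCC, the core of the sites bound by ETS factors of endothelium, in capitals. The Kdr window was chr5:75978456-75978705, that of Flt1 chr5:147726012-147726261, that of Vegfa chr17:46032378-46032627 and that of Vegfb chr19:6987652-6987901, all on the minus strand.
Kdr: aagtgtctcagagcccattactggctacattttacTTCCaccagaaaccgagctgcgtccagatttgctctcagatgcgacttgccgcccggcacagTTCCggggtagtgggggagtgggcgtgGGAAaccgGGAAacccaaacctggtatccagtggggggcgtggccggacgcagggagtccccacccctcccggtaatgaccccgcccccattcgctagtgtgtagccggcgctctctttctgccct
Flt1: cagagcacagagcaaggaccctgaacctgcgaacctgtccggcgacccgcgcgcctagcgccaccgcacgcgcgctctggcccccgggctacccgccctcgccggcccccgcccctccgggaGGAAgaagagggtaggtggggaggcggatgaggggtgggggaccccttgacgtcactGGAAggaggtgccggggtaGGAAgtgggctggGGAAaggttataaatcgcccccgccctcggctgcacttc
Vegfa: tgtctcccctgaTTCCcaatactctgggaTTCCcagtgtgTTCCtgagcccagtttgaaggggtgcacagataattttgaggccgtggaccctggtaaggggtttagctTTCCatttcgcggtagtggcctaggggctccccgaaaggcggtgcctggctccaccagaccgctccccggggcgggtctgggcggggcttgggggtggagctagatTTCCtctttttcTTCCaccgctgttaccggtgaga
Vegfb: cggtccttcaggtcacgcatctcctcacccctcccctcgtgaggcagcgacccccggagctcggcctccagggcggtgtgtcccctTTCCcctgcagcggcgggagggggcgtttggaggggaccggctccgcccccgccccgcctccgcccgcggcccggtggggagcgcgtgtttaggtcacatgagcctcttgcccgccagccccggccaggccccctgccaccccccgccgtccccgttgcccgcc
Counted on both strands, GGAA occurred 4 times for Kdr, 4 times for Flt1, 6 times for Vegfa and 1 time for Vegfb. Among the members not shown, it occurred 4 times for Nrp1, 2 times for Flt4 and not at all for Pgf. Nrp2 and Vegfc, which were also higher in bright cells, had it 1 time each, as Vegfb did, so the number did not follow the bright over dim results. Of 32851 RefSeq promoter windows of this length, 93.4% held it, with a median of 3 matches, so most promoters hold it. The core GCGTG, which is part of some hypoxia response elements, occurred 2 times for Kdr, 1 time for Flt1 and 2 times for Vegfb, and in 28.2% of all windows, while the Vegfa window shown held none. RefSeq gives Vegfa a second start site, and the window before it (chr17:46025164-46025413), not shown because it lies within the gene, held GCGTG 1 time and the related core ACGTG 1 time, which 16.6% of all windows held. Nothing was measured at these sites, and the matches are a description of the letters.

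Libraries held 11440169 to 15074909 counts on genes. Col4a5, the targeted gene, had 17 to 51 counts in AS-dim and 439 to 877 in WT-dim libraries, a difference of -4.69 on the log2 scale (standard error 0.45, adjusted p = 0.00982, edgeR quasi-likelihood test). In the bright cells it had 43 to 104 counts in AS and 69 to 158 in WT, and these ranges overlapped, so it separates the genotypes in the dim cells alone. Podocyte and tubule markers were lower in AS-dim cells too, and their part in the Col4a5 difference was not tested. Tek, which drives the reporter, was higher in bright than in dim cells of WT mice by a log2 fold change of 3.67 (adjusted p = 0.000132). The 14 endothelial markers (such as Pecam1, Cdh5 and Emcn) summed to 11187 to 16794 normalised counts scaled to a common library size (CPM, counts per megacount) in the bright libraries, to 780 to 1359 in WT-dim and to 218 to 300.4 in AS-dim libraries. The 12 leukocyte markers (such as Ptprc and Lyz2) summed to 4530 to 6976 CPM in WT-dim and to 9181 to 11593 in AS-dim libraries, above the endothelial sum in all 6, against 37.5 to 83.8 in the bright libraries, where Cd3e, Cd3g, Itgam and Nkg7 were not listed. The 10 podocyte markers ranged from 465 to 1239 CPM in the dim and from 148 to 575 in the bright libraries. The 10 proximal tubule markers summed to 1486 to 7201 CPM in WT-dim and 15.9 to 437 in AS-dim, and to 439 to 2965 in WT-bright and 25.2 to 638 in AS-bright libraries. These sums move with the groups compared below, and their part in the results was not tested. Fits with a marker covariate are given for some values. They cannot divide an effect where the marker sum lies apart between the genotypes. In sorted bulk samples, fewer cells of a type and less RNA per cell cannot be told apart.

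To compare the genes with each other, CPM were divided by the length of the merged exons of each gene in kb. In WT-bright libraries, Nrp1 (223 ± 58.1 CPM per kb, SD, n = 3) and Kdr (179 ± 49.6) were highest and overlapped with each other. Flt1 (55.7 ± 17.3) and Vegfa (52.2 ± 14.8) came next and overlapped too, followed by Vegfc (15.1 ± 8.81) and Vegfb (5.52 ± 1.09). Nrp2 (3.42 ± 0.602) and Flt4 (3.30 ± 0.710) lay close together, and Pgf (0.421 ± 0.278) was lowest. In AS-bright libraries Kdr stood first (317 ± 68.3 CPM per kb), above Nrp1 (185 ± 17.8) with no overlap, and Flt1 (71.0 ± 2.46) and Vegfa (37.8 ± 6.10) held the next places. Dim cells had another order, with the ligand Vegfa first in WT (24.2 ± 6.68 CPM per kb), where it overlapped with Nrp1 (18.2 ± 6.42), and Kdr next (16 ± 3.42). In AS-dim libraries Vegfa (17.0 ± 1.61) was separate from Nrp1 (8.30 ± 1.62), and Kdr (2.42 ± 0.622) was in sixth place, overlapping with Vegfb (2.6 ± 0.961).

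**Figure D1:**
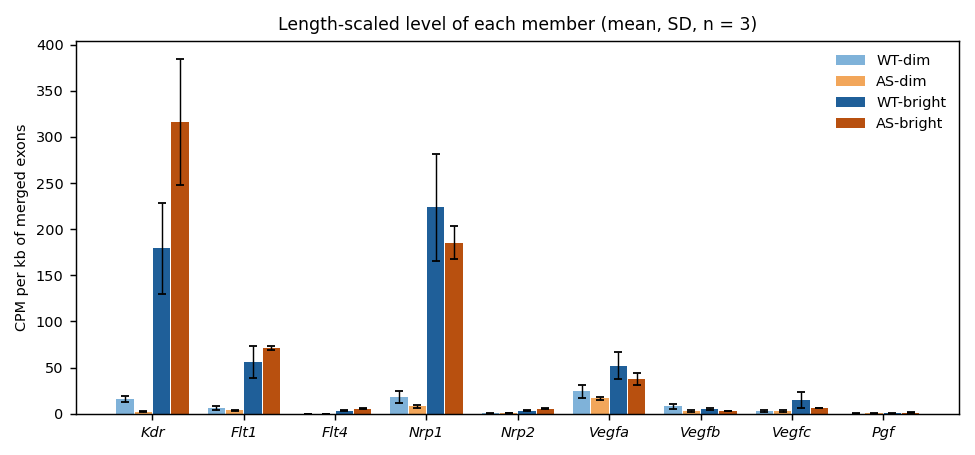
Length-scaled level of the 9 genes in CPM per kb of merged exons, with bars for the mean and error bars for the SD of the 3 libraries of a group. Kdr and Nrp1 stand far above the other members in the bright cells, and in AS-dim cells Kdr falls to 2.42 while Vegfa is at 17.0.

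Kdr lies on chromosome 5 (75932827 to 75978458, minus strand, GRCm38, protein-coding). WT-dim libraries had 158, 166 and 109 CPM of Kdr (replicates 1 to 3), and AS-dim libraries had 16, 27.3 and 22.2. Each AS-dim library was far below each WT-dim library. The log2 fold change was -2.76 (standard error 0.29, adjusted p = 0.0120, edgeR's quasi-likelihood test, p-values adjusted by Benjamini and Hochberg across the table). Of 14637 genes tested, 8.63% passed in either direction and 6.42% were lower in AS. Of the 7 members tested, Kdr was the 1 that passed, and 11 of 14 endothelial markers were lower too (median log2 fold change -2.24). So were 5 of 5 loop and distal nephron markers (median -3.21), 4 of 10 proximal tubule markers (median -4.20) and 4 of 10 podocyte markers (median -1.74), while 3 of 12 leukocyte markers were higher (median 0.53). Without AS-dim replicate 1 the log2 fold change was -2.6 with an adjusted p of 0.103, and without replicate 3 it was -2.77 with 0.0968 (edgeR). The fold change thus stayed about as large while the call was lost, as were nearly all other calls of the table in these fits. With the mean of the proximal tubule markers as a covariate it was -2.24 (adjusted p = 0.689), and with that of the leukocyte markers -1.85 (adjusted p = 0.300), both from edgeR. The sums of both marker lists lay apart between the genotypes in dim cells, so these fits cannot divide the effect between marker and genotype. No gene of the whole table passed in either fit. Over all 17 alternatives its log2 fold change was -3.00 to -1.85, its adjusted p 1.33e-15 to 0.689, and it passed in 13.

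In the bright cells the groups lay the other way round. Kdr reached 1179, 2074 and 1597 CPM in WT-bright and 3237, 3193 and 2147 in AS-bright libraries, and the lowest AS-bright library lay just above the highest WT-bright library. The difference (log2) of 0.76 (standard error 0.27, adjusted p = 0.147, edgeR) did not pass. The difference of the genotype effects, bright minus dim, was 3.55 on the log2 scale (standard error 0.40, adjusted p = 0.00222, edgeR interaction term). It was past the threshold also with the mouse as a replicate block (3.56, adjusted p = 0.00484, edgeR) and without any 1 of the 12 libraries, with adjusted p of 6.09e-13 to 0.0120 over 20 alternatives. Among all genes 3.77% passed this test, 2.96% with a higher effect in bright, and Kdr was the 1 that did of the 7 members with enough counts in each population. Marker genes moved with it: 12 of 14 endothelial markers passed with a higher effect in bright cells (median log2 difference 2.57, Cldn5 at 3.84), as did Tek (2.96, adjusted p = 0.00432, edgeR) and 6 of 10 podocyte markers (median 2.04), against a median of 0.13 over all genes. Kdr as a share of the endothelial marker sum is given with the ratios, and the part of the podocyte markers in its value was not tested. Bright over dim, Kdr differed by 11.5-fold in WT (log2 fold change 3.53, standard error 0.30, adjusted p = 5.49e-05, edgeR) and by 130-fold in AS (7.03, standard error 0.31, adjusted p = 6.35e-08, edgeR).

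Flt1, the high-affinity receptor, lies on the same chromosome (147561604 to 147726011, minus strand). It had 66.7, 114 and 59.6 CPM in WT-dim and 45.6, 41.0 and 61.6 in AS-dim libraries, and the groups overlapped. The log2 fold change of AS over WT in dim cells was -0.73 (standard error 0.30, adjusted p = 0.173, edgeR). WT-bright libraries had 490, 941 and 826 CPM and AS-bright libraries 997, 944 and 936, with a log2 difference, AS over WT, of 0.29 (standard error 0.24, adjusted p = 0.521, edgeR). In WT-bright the library of mouse 1 was low for Flt1, as it was for Kdr, Nrp1 and Vegfa. From dim to bright, Flt1 was 9.65-fold higher in WT and 19.3-fold higher in AS (adjusted p = 0.000222 and 1.15e-07, edgeR).

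Kdr and Flt1 were also set against each other within each library, as the ratio of their CPM per kb, though whether the same cells hold both was not tested. The ratio was 2.18 to 3.55 in WT-dim and 0.525 to 0.994 in AS-dim libraries, a 4.12-fold difference of the means. In WT-bright it was 2.89 to 3.60, close to WT-dim, and in AS-bright 3.43 to 5.06. An exact permutation test of 3 against 3 (two-sided) gave p = 0.1 for the dim cells, the smallest it allows, and p = 0.2 for the bright cells. Set against the summed endothelial markers, which do not include Kdr, Kdr was 12.2 to 14.0% in WT-dim and 7.35 to 9.08% in AS-dim, and 10.5 to 12.5% in WT-bright and 14.0 to 22.0% in AS-bright libraries. Relative to this sum, in which abundant markers weigh most, Kdr was lower in AS-dim cells and higher in AS-bright cells, with no overlap in either (exact permutation p = 0.1 in each, the smallest possible). Single markers did not all lie on the same side of it: in dim cells Emcn (log2 fold change -2.88), Ptprb (-2.96) and Sox17 (-3.25) fell by more than the -2.76 of Kdr, Ramp2 (-2.75) and Cldn5 (-2.71) by about as much, and in bright cells Cldn5 differed by 1.08 against 0.76 for Kdr, neither passing. Flt1 ran the other way in dim cells, at 5.24 to 8.37% in WT and 13.7 to 21.7% in AS.

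**Figure D2:**
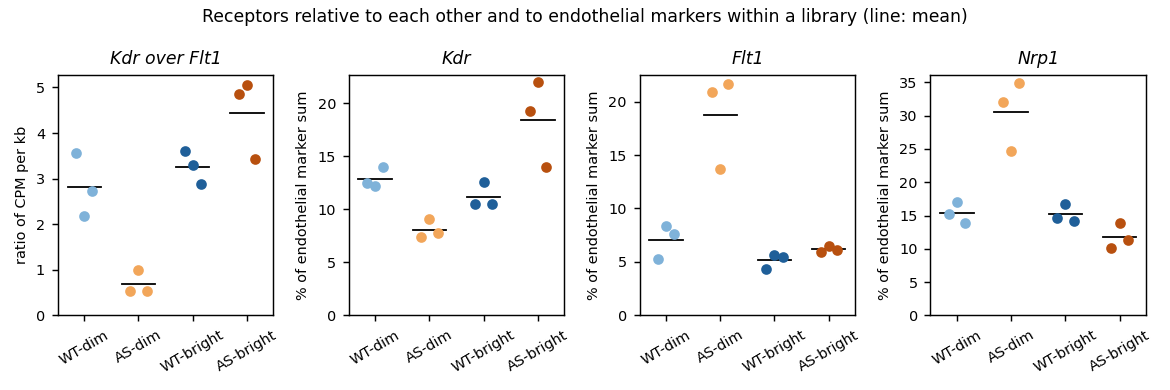
Ratio of Kdr to Flt1 (CPM per kb) and the levels of Kdr, Flt1 and Nrp1 as a percent of the summed CPM of 14 endothelial markers, with a point per library and a line at the mean. The AS-dim libraries lie lowest for the Kdr to Flt1 ratio, at 0.525 to 0.994, and highest for Flt1 and Nrp1 relative to the markers.

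Flt4, the receptor for Vegfc and Vegfd (chromosome 11, 49609263 to 49652739, plus strand), was found almost only in the bright cells. It had 13, 23 and 3 counts in WT-dim and 6, 2 and 8 in AS-dim libraries, too few to pass the filter on low counts for a test between genotypes there. WT-bright libraries had 23.9, 33.9 and 23.7 CPM and AS-bright libraries 50.6, 46.9 and 39.4, all above WT-bright. The difference (log2) of 0.69 (standard error 0.25, adjusted p = 0.152, edgeR) did not pass. Bright over dim, Flt4 entered the test only through the bright cells, so its fitted log2 fold changes of 4.64 in WT and 6.75 in AS are given as a description and rest on 2 to 23 counts a library in the dim cells. Flt4 is also a marker of lymphatic endothelium, and the lymphatic markers Prox1, Lyve1, Ccl21a, Mmrn1 and Reln together summed to 4.47 to 25.7 CPM in WT-dim, 1.36 to 4.14 in AS-dim, 6.70 to 23.9 in WT-bright and 19.2 to 23.2 in AS-bright libraries. Ccl21a was not listed in either population, nor were Mmrn1 and Reln in the bright cells. The AS sums thus moved with Flt4 between dim and bright cells, while the WT sums overlapped, and their part in the Flt4 values was not tested. With so few counts in the dim cells, no difference of the genotype effects is given for Flt4.

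Nrp1 (chromosome 8, 128358604 to 128503363, plus strand) was the most abundant co-receptor. It overlaps a miRNA gene, Mir1903, on the same strand, and how reads of the shared stretch were counted was not examined. WT-dim libraries had 193, 232 and 109 CPM and AS-dim libraries 70.1, 74.2 and 99.3, all below WT-dim. The log2 fold change was -1.17 (standard error 0.30), with an adjusted p of 0.0518 in the edgeR quasi-likelihood test, just beyond the threshold of 0.05. It passed with DESeq2 (adjusted p = 0.00693), in a fit of all 12 libraries and without WT-dim replicate 3 (-1.42, adjusted p = 0.0162, edgeR). With the leukocyte marker covariate the log2 value was -0.10, but that marker sum lay apart between the genotypes, so the fit cannot divide the effect. Over the 17 alternatives, the adjusted p of Nrp1 was 0.00693 to 0.978 (edgeR or DESeq2). Nrp1 lay at 13.9 to 17.0% of the summed endothelial markers in WT-dim and at 24.7 to 34.9% in AS-dim libraries. In the bright cells, 1641, 2776 and 2142 CPM in WT and 1690, 2012 and 1735 in AS overlapped (log2 fold change -0.33, adjusted p = 0.448, edgeR). Bright over dim, Nrp1 was 12.7-fold higher in WT and 22.2-fold higher in AS (adjusted p = 0.000110 and 1.10e-07, edgeR).

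Nrp2 (chromosome 1, 62703285 to 62818695, plus strand), which prefers Vegfc and the class 3 semaphorin Sema3f, was low in dim cells. It overlaps an antisense gene (Gm29083) and a further annotated transcript (Gm37121), so its counts are uncertain as the strand used in counting is not given in the sources used here. WT-dim libraries had 3.07, 11.9 and 5.06 CPM and AS-dim libraries 6.57, 5.47 and 8.30, with a log2 difference, AS over WT, of -0.01 (standard error 0.54, adjusted p = 0.989, edgeR). WT-bright libraries had 45.0, 44.2 and 32.3 CPM and AS-bright libraries 58.9, 65.4 and 70.6. All AS-bright libraries were above all WT-bright libraries, but the difference (log2) of 0.61 (standard error 0.23, adjusted p = 0.163, edgeR) did not pass. Nrp2 was 6.23-fold higher in bright than in dim cells of WT and 9.50-fold higher in AS (adjusted p = 0.00428 and 1.45e-06, edgeR).

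Among the ligands, Vegfa (chromosome 17, 46016993 to 46032369, minus strand) was the most abundant in each group. WT-dim libraries had 88.8, 137 and 85.9 CPM and AS-dim libraries 67.7, 80.8 and 70.5, all below WT-dim, with a log2 difference, AS over WT, of -0.54 (standard error 0.24, adjusted p = 0.194, edgeR). WT-bright libraries had 162, 288 and 221 CPM and AS-bright libraries 137, 189 and 160, which overlapped, with a log2 difference, AS over WT, of -0.53 (standard error 0.24, adjusted p = 0.228, edgeR). Between bright and dim cells, Vegfa was 2.21-fold higher in WT (log2 fold change 1.14, standard error 0.30, adjusted p = 0.0202, edgeR) and 2.21-fold higher in AS (1.14, standard error 0.19, adjusted p = 0.000508, edgeR). The WT call was lost without WT-dim replicate 1 or 3 or WT-bright replicate 2 or 3, with adjusted p of 0.0562 to 0.0801 and log2 fold changes of 0.95 to 1.17. The podocyte markers summed to 597 to 1239 CPM in WT-dim and 148 to 292 in WT-bright libraries, where 6 of 10 were lower in bright cells (median log2 fold change -1.62). In AS they summed to 465 to 502 CPM in AS-dim and 339 to 575 in AS-bright libraries, where 5 of 10 were higher in bright cells and 1 was lower (median 0.74). Their part in the Vegfa values was not tested.

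Vegfb (chromosome 19, 6982473 to 6987651, minus strand), a ligand of Flt1 linked to fatty acid handling, was at a low level in all 4 groups. It had 17.0, 12.9 and 8.43 CPM in WT-dim and 4.17, 5.72 and 2.63 in AS-dim libraries, and the difference of -1.65 on the log2 scale (standard error 0.47, adjusted p = 0.0643, edgeR) missed the threshold. Without WT-dim replicate 3 it was -1.88 with an adjusted p of 0.0372 (edgeR; 0.00995 to 0.987 over 17 alternatives). WT-bright libraries had 10.6, 7.05 and 8.94 CPM and AS-bright libraries 4.66, 4.96 and 4.00, with a log2 difference, AS over WT, of -1.04 (standard error 0.37, adjusted p = 0.154, edgeR). In both populations every AS library was below every WT library. Of the proximal tubule markers, 4 of 10 were lower in AS-dim cells, and their sums did not overlap there. In bright cells 0 of 10 passed (median log2 fold change -2.59) and the sums overlapped. Their part in the Vegfb values was not tested. In the covariate fits the log2 fold change was -0.41 in dim and -0.67 in bright cells with the proximal tubule markers, and -0.41 and -1.36 with the leukocyte markers. The leukocyte sums lay apart between the genotypes in both populations, and the proximal tubule sums in dim cells. There these fits cannot divide the effect between marker and genotype. Bright over dim, the log2 fold change of Vegfb was -0.47 in WT (adjusted p = 0.459, edgeR) and 0.12 in AS (adjusted p = 0.806, edgeR).

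Vegfc (chromosome 8, 54077606 to 54187096, plus strand), the lymphangiogenic ligand of Flt4, varied most among WT-bright libraries, with 58.9, 15.7 and 36.2 CPM. The AS-bright libraries had 16.5, 16.1 and 15.9 CPM, close to the lowest WT-bright library. The difference (log2) of -1.28 (standard error 0.43, adjusted p = 0.132, edgeR) did not pass. Without WT-bright replicate 2 it was -1.65 with an adjusted p of 0.0440 (edgeR; 0.0360 to 0.871 over 17 alternatives). In dim cells, 9.73, 8.45 and 4.21 CPM in WT and 10.5, 4.64 and 7.58 in AS overlapped. Vegfc was higher in bright than in dim cells of WT by 5.20-fold and of AS by 2.11-fold (adjusted p = 0.0132 and 0.0143, edgeR, the AS value 0.00495 to 0.0781 over 15 alternatives), and the difference between these genotypes did not pass (interaction -1.22, standard error 0.66, adjusted p = 0.350, edgeR).

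Pgf (chromosome 12, 85166635 to 85177790, minus strand), the placental growth factor, was near the limit of detection. It had 7, 0 and 14 counts in WT-dim and 1, 4 and 45 in AS-dim libraries, and did not pass the filter for a test between genotypes. WT-bright libraries had 18, 29 and 7 counts and AS-bright libraries 72, 47 and 44. All AS-bright libraries were higher, but the difference (log2) of 1.59 (standard error 0.56, adjusted p = 0.145, edgeR) did not pass. Bright over dim, the fitted log2 fold change of Pgf was 1.05 in WT and 1.54 in AS, and without AS-dim replicate 3, which held 45 of the AS-dim counts, the AS value was 4.25. These are given with no test, since the counts in the dim cells were too few.

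**Figure D3:**
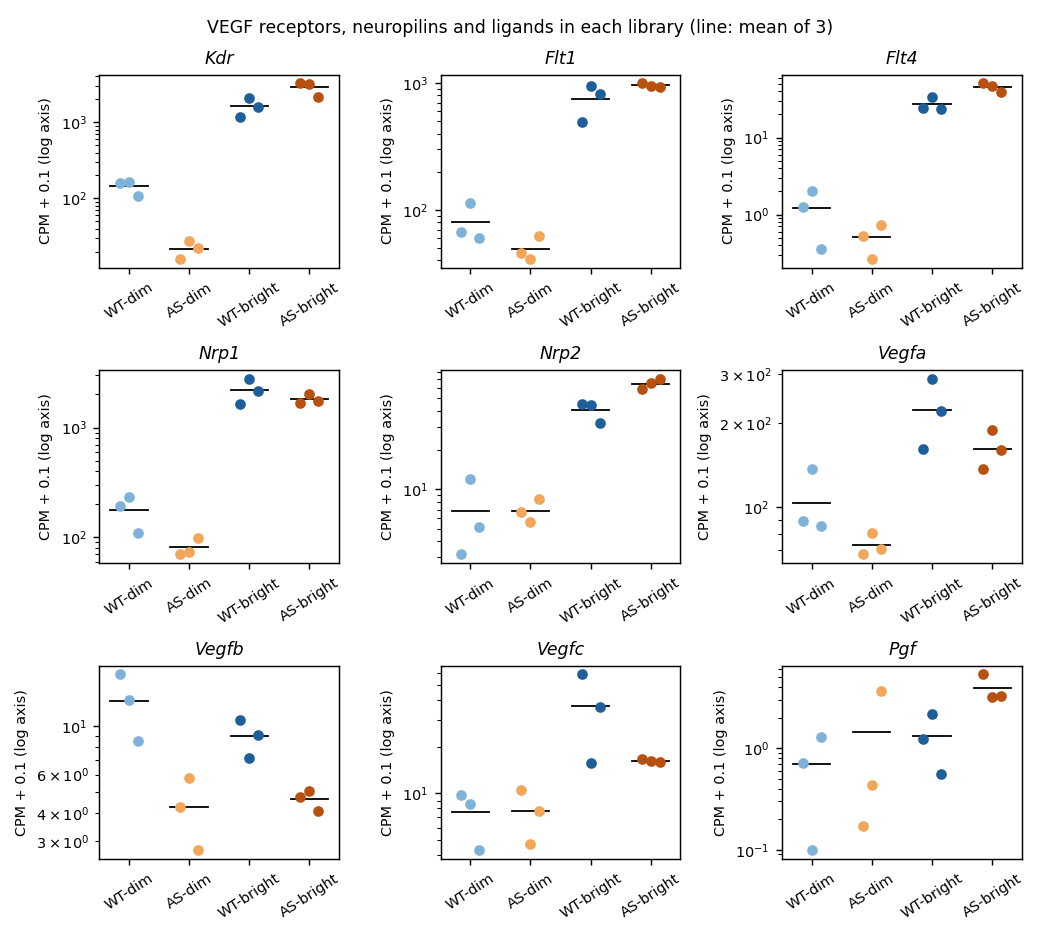
CPM of each gene in every library, plus 0.1, on a log axis that differs between panels, with a point per library and a line at the mean of the 3. The AS-dim points of Kdr lie below those of WT-dim with a wide gap, and the AS points of Vegfb lie below the WT points in both populations.

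Counted over the members, 4 of 7 tested in dim cells had AS-dim libraries all below WT-dim, against 15.5% of all genes tested. In bright cells 5 of 9 did not overlap between genotypes (Kdr, Flt4, Nrp2 and Pgf higher and Vegfb lower in AS), against 24.7% of all genes tested. No member passed in bright cells by the edgeR quasi-likelihood test, where 0.452% of 14396 genes did, while 7 of 9 had an unadjusted p under 0.05 (21.8% of all genes did), 1 of 9 passed with DESeq2 (Vegfc) and 1 of 9 with edgeR's likelihood ratio test (Vegfb). Of the 7 members that passed the filter on low counts in each population alone (all but Flt4 and Pgf), 6 were higher in bright than in dim cells of WT, against 13.8% of genes higher and 25.3% in either direction. In AS 6 of the 7 were higher too, against 28.6% higher and 55.1% in either direction. The median log2 fold change of these 7, bright over dim, was 2.64 in WT and 3.25 in AS, and over all genes -0.04 and 0.02. The mesangial and mural markers moved the same way, with 3 of 7 higher in bright cells of WT (median 2.22) and 7 of 7 in those of AS (median 3.43). Ren1, among the 7, entered the test only through the bright cells, so its call in AS is a description. Their sums were 55.1 to 202 CPM in the dim and 417 to 879 in the bright libraries, and their part in the members' values was not tested.

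**Figure D4:**
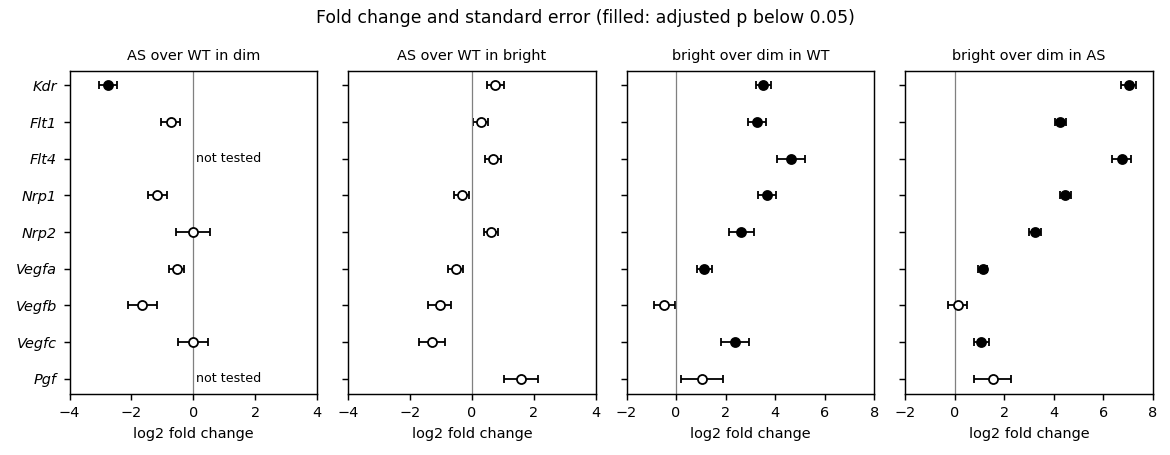
Log2 fold change of each member with its standard error in 4 comparisons. Filled points have an adjusted p below 0.05 (edgeR quasi-likelihood test); Kdr is the 1 filled point between genotypes, at -2.76 in dim cells, and the points of Flt4 and Pgf between bright and dim cells are a description, as their counts in dim cells were too few.

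Beside the members, 84 genes of the pathway were followed in 5 lists: further ligands, receptor partners, signal transduction, endothelial target genes and the oxygen-sensing genes that control the ligands. In AS-dim against WT-dim cells 1 of 79 tested was higher and 14 were lower, or 19% of those tested, against 8.63% of all genes in either direction and 6.42% lower, with a median log2 fold change of -0.11 against -0.02 over all genes. Of the ligands, 4 of 5 were lower, among them Vegfd, a further ligand of Flt4 and close relative of Vegfc (log2 fold change -2.82, adjusted p = 0.0274, edgeR), and Sema3f (-2.54, adjusted p = 0.0142, edgeR), a repellent that binds Nrp2. Receptor partners were lower in 4 of 16, with the syndecan Sdc2 lowest (-3.21, standard error 0.55, adjusted p = 0.0217, edgeR) and the phosphatase Ptprb, which acts on endothelial receptors and is also one of the endothelial markers, at -2.96 (adjusted p = 0.0142, edgeR). Signal transduction had 2 of 35 lower, a share no larger than the 6.42% of all genes: the heat shock protein Hspb1 (-3.70, standard error 0.59, adjusted p = 0.0206, edgeR) and the adaptor Bcar1 (-3.31, standard error 0.40, adjusted p = 0.0142, edgeR). Target genes were lower in 3 of 16: Dll4, a Notch ligand of tip cells, Adamts1 and Igfbp3. Hif1a was the 1 gene of the 79 that was higher, by 0.83 on the log2 scale (standard error 0.17, adjusted p = 0.0288, edgeR), while its relative Epas1, abundant in endothelium, was lower (-2.37, standard error 0.22, adjusted p = 0.00982, edgeR). These calls, like that of Kdr, turned on single libraries: without AS-dim replicate 1 no gene of the whole table passed in edgeR (2972 had an unadjusted p under 0.05), and 1 gene passed without AS-dim replicate 3.

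In AS-bright against WT-bright cells 2 of 82 pathway genes passed, both higher, or 2.44%, against 0.452% of all genes. Apln, the peptide ligand of the apelin receptor and a tip cell gene, rose from 4.02 ± 2.33 to 22.0 ± 5.01 CPM (SD, n = 3), or 2.37 on the log2 scale (standard error 0.42, adjusted p = 0.0422, edgeR). Egln3, a prolyl hydroxylase that is itself induced by hypoxia, rose from 5.15 ± 0.678 to 27.9 ± 5.37 CPM (2.37, standard error 0.31, adjusted p = 0.0291, edgeR). At an unadjusted p under 0.05 there were 14 higher and 2 lower, a share below the 21.8% of all genes. Calls between bright genotypes turned on single libraries: without WT-bright replicate 3, AS-bright replicate 1 or AS-bright replicate 3, no gene of the whole table passed in edgeR, where 1814 to 2715 had an unadjusted p under 0.05, and without any 1 of the other libraries 274 to 281 genes passed. Both calls also ended with edgeR's version 3 fit and with the proximal tubule covariate, under which 0 genes passed (2906 and 1282 at an unadjusted p under 0.05), and the proximal tubule sum was lower in AS-bright cells by median.

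The genotype effect on 13 of 81 pathway genes was higher in bright than in dim cells, or 16%, against 2.96% of all genes and 12 of 14 endothelial markers (Ptprb is in both lists), and none went the other way at the adjusted threshold in the edgeR interaction test, where 2 did at an unadjusted p under 0.05. Among the genes that passed, the largest differences were those of Vegfd (3.53, standard error 0.74, adjusted p = 0.0192, edgeR), Bcar1 (3.44, standard error 0.42, adjusted p = 0.00256, edgeR) and Igfbp3 (3.29, standard error 0.53, adjusted p = 0.00519, edgeR). Vegfd had 252, 261 and 106 counts in WT-dim and 51, 13 and 36 in AS-dim, and 328, 482 and 225 in WT-bright and 623, 289 and 729 in AS-bright libraries. Its fall in AS was in the dim cells, and the bright groups overlapped.

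Between bright and dim cells 32 of 81 pathway genes were higher and 13 lower in WT, and 43 and 21 of 80 in AS, where 25.3% of all genes passed in WT and 55.1% in AS (13.8% and 28.6% higher). These counts include genes that passed the filter on low counts through the higher population alone, such as Plvap (bright) and Sh2d2a (dim). For such genes the direction was set by the filter, and their values are a description. In WT the highest were the target genes Sox7 (28.0-fold), Esm1 (17.3-fold) and Dll4 (16.6-fold), and in AS Sox7 (105-fold), Dll4 (100.2-fold) and the semaphorin receptor Plxna2 (83.3-fold). The lowest in both genotypes were signal transducers known from lymphocytes: Nfatc2 (27.2-fold lower in WT and 70.4-fold in AS), Prkcb (96.8-fold and 121-fold) and the T cell adaptor Sh2d2a. Sh2d2a had 0, 0 and 1 counts in WT-bright libraries and 510, 947 and 616 in WT-dim, so it was at least 294-fold lower in WT-bright against a floor of 3 counts per library. In these 3 the leukocyte marker sums, above, moved in the same direction, and their part was not tested.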

How the data were processed

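The 9 members, the gene lists and the tests were chosen with earlier results of these data known. Per the labels, paper and submitters' processing notes, libraries were poly-A selected, aligned with STAR 2.6.0c to GRCm38.p5 (Gencode M16) and counted per gene; the strand setting is not given in the sources used here. The deposited tables, 1 per population, hold these counts, not normalized, with RPKM by the authors. The deposited gene length sums the exons of all transcripts, so the RPKM were set aside, and levels were scaled by merged exon lengths of Gencode M21. Columns of the authors' own comparison (fold changes, p-values) were not used, and 92 ERCC rows were left out. Each comparison used edgeR 4.0.16 (R 4.3.3; TMM, filterByExpr, quasi-likelihood test, bias-adjusted version 4 fit, Benjamini-Hochberg, threshold 0.05), checked on simulated data. Bright and dim comparisons and the interaction used genes in both tables. CPM used TMM library sizes over the 12 libraries. Totals were 11440169 to 15074909 counts. Replicate pairs gave a chi-square of 29.5 to 104 per degree of freedom, so none was a duplicate. P-values between genotypes measure the spread between mice. The main bright over dim and interaction fits held no term for the mouse. They treated the dim and bright libraries of a mouse as independent. Dim and bright libraries of a mouse share its number in the labels; their deviations correlated by 0.109 to 0.334 in WT and 0.0802 to 0.387 in AS, and between different mice by -0.267 to 0.0451 in WT and -0.286 to 0.204 in AS, so that in AS the ranges overlap and the pairing rests on the labels. Promoters are from RefSeq on GRCm38.p6. Genes were named by a rule: the members, Col4a5, Tek, pathway genes with the 3 highest and 3 lowest fold changes among those that passed, and the 3 genes most like each member. Sema3f, Ptprb, Adamts1, Epas1 and, for the dim cells, Vegfd, Dll4 and Igfbp3, and the endothelial markers Cldn5, Emcn, Sox17 and Ramp2 were added after their values were seen. Alternatives were RLE, library sizes alone, no filter, DESeq2 1.42.0, a likelihood ratio test, a replicate block, the study's cut-offs, 1 fit of all libraries, 2 marker covariates, each library left out and, added after seeing the data, edgeR's version 3 fit.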

Additional observations from a re-analysis of the deposited data

Results flagged for a closer look

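The effect of the AS genotype on Kdr differed between bright and dim cells by 3.55 on the log2 scale (standard error 0.40, adjusted p = 0.00222, edgeR interaction term), with all 3 AS libraries below WT in the dim and all 3 above WT in the bright cells. The other 6 members with enough counts in each population did not pass this test, and none of them moved in opposite directions in all libraries of the 2 populations. The difference was not particular to Kdr: 12 of 14 endothelial markers passed the same test (median 2.57, Cldn5 at 3.84), as did Tek (2.96) and 6 of 10 podocyte markers (median 2.04). Groups of 3 are too small for a test of single stray libraries.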

How the results depend on the processing

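Of 722 values of single members under the alternatives, 670 kept direction and side of the threshold, 12 lost the call, 16 gained one and 24 changed sign. In the AS-dim against WT-dim comparison, where 1263 genes and 1 member passed, DESeq2 gave 2213 genes and 3 members, the likelihood ratio test 1968 and 2, the study's cut-offs 2 members, 1 fit of all 12 libraries 2106 and 3, the replicate block 494 genes and edgeR's version 3 fit 582. Both covariates gave 0 genes and 0 members (unadjusted p under 0.05 in 926 genes with the proximal tubule and 1754 with the leukocyte markers), and leaving out a replicate gave 0 to 1825 genes and 0 to 3 members. In bright cells (65 genes and 0 members; 7 members at an unadjusted p under 0.05), no filter gave 39 genes, DESeq2 1078 and 1 member, the likelihood ratio test 931 and 1, the study's cut-offs 798 and 1, the replicate block 16 genes, 1 fit of all libraries 139, the leukocyte covariate 555, and version 3 and the proximal tubule covariate 0 each (2906 and 1282 unadjusted). Leaving out a replicate gave 0 to 281 genes and 0 to 1 members there. Between bright and dim AS cells the study's cut-offs gave 4012 of 7743 genes. For the interaction (569 genes, 1 member) DESeq2 gave 1184 and 2 (the further member here and in the other settings was Flt4, with too few counts in dim cells), the likelihood ratio test 1235 genes, the replicate block 877, the study's cut-offs 1507 and 2, and leaving out a replicate 252 to 857 and 1 to 2. The causes of these shifts were not tested.

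Signs changed only for values that did not pass. In dim cells Nrp2 was 0.045 with library sizes alone, 0.13 with the replicate block, 0.018 in 1 fit of all libraries and -0.35 to 0.66 with a replicate left out. Vegfc was 0.077 with library sizes alone, 0.0079 with no filter, 0.030 in 1 fit, 0.79 with the leukocyte covariate and -0.35 to 0.25 with a replicate left out. Bright over dim in AS, Vegfb was -0.12 to 0.37 with a replicate left out. In the interaction, Vegfa was -0.080 with library sizes alone and -0.21 to 0.27 with a replicate left out, Nrp2 -0.052 to 1.01 and Pgf, on few counts, -0.41 to 3.27. The replicate block changed no call of a member. WT and AS mice share only a number, so the block between genotypes pairs different mice. At 3 libraries a group, Flt4 and Pgf had too few counts in dim cells for a test.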

Other observations

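The genes whose log2 CPM followed each member most closely over the 12 libraries were listed for description. These correlations (Pearson, no p) were taken over dim and bright libraries together, so a gap between the populations enters them, and its part was not tested. In all, 13961 genes were compared. Kdr was closest to the TGF-beta co-receptor Eng (r = 0.997), Adamts1 (0.996) and Fermt2 (0.995). Flt1 was closest to Smad6 (0.995), Tmem44 (0.995) and Hecw2 (0.995), and Flt4 to Gimap4 (0.994), Acvrl1 (0.993) and Mansc1 (0.993). Nrp1 was closest to Als2cl (0.995), Pdgfd (0.994) and Boc (0.994), and Nrp2 to Nkd1 (0.987), Ecm2 (0.979) and Sptan1 (0.978). Among members, Flt1 and Flt4 were the closest pair (0.993).

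The ligands followed other genes. Vegfa was closest to Zfp2 (0.977), Gm28053 (0.974) and Dennd5b (0.970) and Vegfb to Fahd1 (0.966), Slc37a4 (0.962) and Ddo (0.959), while its best match among the members was Vegfa at 0.189. Vegfc was closest to Dnlz (0.950), Etfbkmt (0.942) and Gm43860 (0.922), and Pgf to Prmt1 (0.922), Gpaa1 (0.892) and Abcf2 (0.884).

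The ratio of Nrp1 to Nrp2 per length was lower in AS in both populations, at 23.5 to 76.1 in WT-dim and 12.9 to 16.4 in AS-dim libraries, and at 44.2 to 80.3 in WT-bright and 29.7 to 37.2 in AS-bright libraries. Exact permutation tests gave p = 0.1 in each, the smallest that 3 against 3 allows.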
